A study of Mus musculus with 48 samples.

Results

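Lhx1, Eomes, Wnt3 and Mixl1 are 4 of the 55291 gene symbols counted in newly made RNA from mouse embryonic stem cells, and were taken by symbol from the tables of all 48 libraries. They were chosen by their measured values in these same libraries, so their levels and differences are given as a description, with no test. All 4 had enough counts to enter the fit of 23874 features. The name mesoderm describes what these genes are known for in the embryo.

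WNT3 is a secreted ligand of the canonical Wnt pathway and is needed for the primitive streak to form at gastrulation. EOMES is a T-box transcription factor that acts with Nodal and SMAD signals in the streak and directs cells to mesendoderm. MIXL1, a paired-type homeodomain factor, and LHX1, a LIM-homeodomain factor, act in nascent mesendoderm and in the anterior streak and its derivatives. In embryonic stem cells kept with LIF these 4 genes are usually transcribed at low levels.

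The cells were of strain 129S5/SvEvBrd and all made an MD-tagged form of SMARCE1, which belongs to the BAF class of chromatin remodellers. In Smarce1-MD cells (MD; clones MD09 and MD30) the design text states that the protein is degraded in mitosis. Smarce1-MD (R42A) cells (R42A; clones A04 and A10) carried the R42A form and served as the comparison. RNA was labelled with 5-ethynyluridine (EU), a uridine analogue that is built into nascent transcripts, in untreated asynchronous cells, directly on release (0 min), and 45, 90, 180 or 240 min later, once cells held in nocodazole (100 ng/ml for 6 h, a drug that stops spindle assembly and so holds cells in mitosis) had been shaken off and washed. Each of the 12 groups held 2 clones with 2 libraries each. The clone was the replicate (n = 2 per group), and no label says that a clone's libraries were separate cultures. Errors and p-values of genotype differences rest on the spread between the 2 clones of a group, pooled over the 12 groups. They cannot speak for separate cultures of a clone. Errors of changes over time leave out a steady difference between the clones of a genotype, which a clone term takes up. Gene counts per library ranged from 630119 to 3885219 (median 2164095). Marker features of embryonic stem cells had counts in every group apart from Sox2. That feature lies inside Sox2ot on the same strand and had 0 counts in all 48 libraries. Some features listed for other lineages also had counts in every group, so having counts was no test of cell type. In asynchronous R42A cells 7 of 8 stem cell features had counts. So did 6 of 6 fibroblast, 5 of 5 endoderm and 1 of 4 neural features. Counts filed under Smarce1 averaged lower in MD than in R42A cells at all 6 times, from 29.1 against 34.2 CPM (counts relative to the gene total of each library) at 90 min, where the libraries overlapped, to 30.7 against 52.5 CPM at 45 min, where they did not, which says nothing of its protein. The MD libraries at 90 min stood apart from the R42A libraries of that time. They held 630119 to 1518400 gene counts against 2653313 to 3149721, and mitochondrially encoded features took 0.529 to 4.31% of them against 0.183 to 0.217%. At 90 min 15.6% of all features were called higher and 22.1% lower in MD cells, and the part of these library differences in the 90 min values below was not tested. Without mitochondrially encoded features and CT010467.2, an alternative chosen after seeing the data, the 90 min differences of the 4 genes moved by at most 0.01.

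The strand of the counted reads had to be settled first, because it sets what a value under these symbols is. Noncoding features lying inside a coding gene of the other strand (3101 features) held 5.62 to 9.58 CPM per kb of span over the 48 libraries. Coding genes with nothing on the other strand (11480 genes) held 0.353 to 0.671 CPM per kb, so the nested noncoding features were 8.37 to 26.5 times as dense and lay above them in 48 of 48 libraries. Of 3005 nested features with counts and a single host, 2432 (80.9%) were denser than the coding gene around them. Isolated noncoding features (13466) held only 0.198 to 0.277 CPM per kb.

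Known antisense pairs showed the same order. Kcnq1ot1, an imprinted noncoding RNA transcribed against Kcnq1 from within it, was listed at 54.9 CPM on average, while Kcnq1 was listed at 4290 CPM. Tsix, the antisense RNA that embryonic stem cells transcribe across Xist, was listed at 13.5 CPM and Xist at 1440 CPM. Noncoding features inside a coding gene of the same strand (2439) held counts in only 3.44% of cases, which is the pattern of counting over whole gene spans with shared reads discarded. Read this way, a count filed under a symbol comes from the strand opposite to the gene, introns included. The values below are therefore given as counts filed under Lhx1, Eomes, Wnt3 and Mixl1, from the opposite strand of each gene's span, and not as levels of the 4 messenger RNAs. The same holds for every other gene named in this report, whose symbol stands for the counts filed under it. A clause on what such a gene's protein does is background and not a reading of those counts. The sources used here do not give the strand setting itself.

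**Figure D1:**
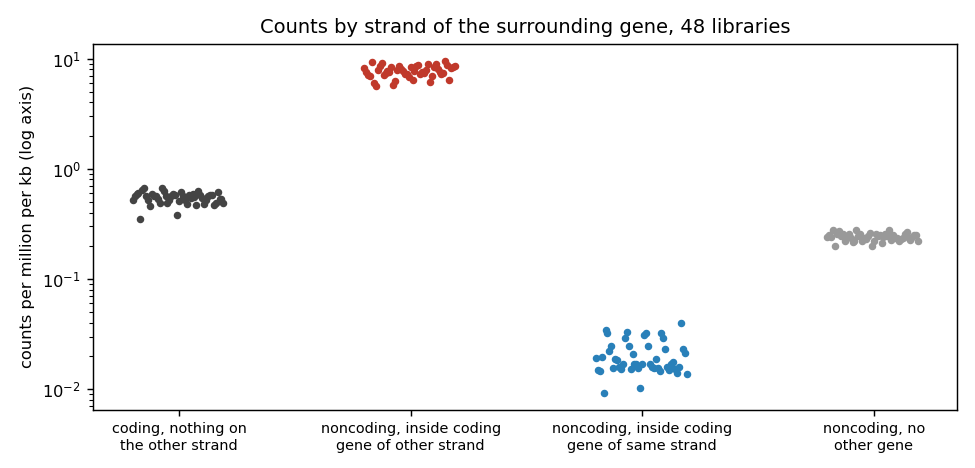
CPM per kb of gene span (log axis) in each of the 48 libraries, for coding genes with nothing on the other strand, noncoding features inside a coding gene of the other or of the same strand, and noncoding features with no other gene; each point is 1 library. Features nested in a gene of the other strand lie above coding genes in all 48 libraries.

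The positions of the 4 genes (mm10, GENCODE M21) show what lies on that opposite strand. Lhx1 occupies chromosome 11 from 84518284 to 84525535 on the minus strand. Its nearest other-strand gene is Lhx1os, 125 bp from its 5′ side and pointing away, and Aatf, on the same strand as Lhx1, begins 4762 bp beyond its 3′ end. Wnt3 occupies chromosome 11 from 103774150 to 103817957 on the plus strand, and the 3′ end of Nsf, on the minus strand, faces its 3′ end at 3825 bp. Mixl1 occupies chromosome 1 from 180693043 to 180697034 on the minus strand, and the 3′ end of Lin9 faces its 3′ end at 2349 bp. Eomes occupies chromosome 9 from 118478212 to 118486132 on the plus strand, and is the only one of the 4 whose span another annotated feature overlaps, the noncoding Gm33460.

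Counts filed under Lhx1 were far higher late after release than before it in both genotypes. In asynchronous cells the 4 R42A libraries held 0, 0, 0.407 and 0.994 CPM (3 counts in all), and the MD libraries 0.544, 0.985, 1.04 and 1.05 CPM (7 counts). At 240 min the R42A libraries held 64.4, 75.9, 79.5 and 102 CPM, and the MD libraries 130, 146, 154 and 164 CPM. No library of either genotype at 240 min came near the asynchronous range. Over the group, the 240 min level was 228 times the asynchronous one in R42A cells (95% interval 77.7 to 1110) and 163 times in MD cells (78.9 to 406). These ratios use library totals alone, and their intervals cover counting error only. With the scaling of the fit, used for the log2 changes below, the log2 change was 7.41 ± 0.36 (SE) in R42A and 7.09 ± 0.30 in MD cells. In bulk RNA, more cells with a transcript and more transcript per cell cannot be told apart.

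Most of the climb under Lhx1 lay between 90 and 180 min. At 0 min R42A cells averaged 2.45 ± 0.0618 CPM (SD over clones, n = 2) from 8 counts and MD cells 4.70 ± 0.496 CPM from 17 counts, where 3 counts in a library of these groups already equal 2.93 to 3.94 CPM. Between 0 and 45 min the log2 change was 1.35 ± 0.49 (SE) in R42A and 1.82 ± 0.34 in MD cells. Between 45 and 90 min it was -0.19 ± 0.30 and -0.32 ± 0.28, a pause within the error. From 90 to 180 min the log2 change was 3.26 ± 0.22 in R42A and 3.08 ± 0.24 in MD cells, the largest step of the release in both genotypes. Over the whole release, from 0 to 240 min, the log2 change was 5.08 ± 0.33 in R42A and 5.10 ± 0.27 in MD cells, and 265 and 126 of the 23874 features had a higher value in the same comparison.

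MD clones held more counts under Lhx1 than R42A clones at every time. At 45 min the R42A libraries held 4.30, 4.33, 7.32 and 8.16 CPM and the MD libraries 12.6, 14.1, 16.5 and 22.8 CPM. At 180 min the R42A libraries held 33.2, 40.3, 55.6 and 61.1 CPM and the MD libraries 93.3, 95.9, 101 and 119 CPM. The genotypes did not overlap at 45, 90, 180 or 240 min, and did overlap at 0 min and in asynchronous cells, where counts were few. The log2 difference, MD minus R42A, was 1.33 ± 0.26 at 45 min, 1.19 ± 0.33 at 90 min, 1.01 ± 0.18 at 180 min and 0.86 ± 0.18 at 240 min. Ordered by level, MD at 240 min stood first and apart from MD at 180 min, which overlapped R42A at 240 min, and R42A at 180 min stood apart from all earlier groups.

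Counts filed under Eomes were also higher after release, with overlapping ranges in both genotypes. Asynchronous R42A libraries held 2.49, 4.11, 4.15 and 5.70 CPM and asynchronous MD libraries 3.67, 3.94, 4.66 and 4.89 CPM. At 180 min the R42A libraries held 22.3, 29.6, 33.2 and 39.1 CPM and the MD libraries 22.6, 25.5, 28.1 and 28.6 CPM. Every 45, 90, 180 and 240 min group lay above every asynchronous library. The log2 change from 0 to 45 min was 1.34 ± 0.29 in R42A and 1.46 ± 0.28 in MD cells, and from 0 to 240 min it was 2.01 ± 0.27 in both.

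The 2 genotypes overlapped under Eomes at all 6 times. Means at 45 min were 18.0 ± 5.49 CPM in R42A and 19.7 ± 5.18 CPM in MD cells, a log2 difference of 0.01 ± 0.23. The difference ranged over the 6 times from -0.35 ± 0.20 at 180 min to 0.31 ± 0.24 at 90 min. The 90 min MD libraries were spread from 11.4 to 41.3 CPM, and without the first or the second library of clone MD09 the 90 min difference was -0.10 or 0.72. From 45 min on, no 2 neighbouring groups in the order of levels were apart, which does not make the first and last of them alike. In R42A cells the log2 change was 0.42 ± 0.18 from 45 to 90 min and 0.47 ± 0.17 from 90 to 180 min. In MD cells it was 0.70 ± 0.21 and -0.16 ± 0.20.

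Gm33460, the noncoding feature that overlaps Eomes, moved differently. It runs on the minus strand over the last 574 bp of Eomes and 2967 bp beyond its 3′ end, so counts filed under it come from the strand of Eomes itself. In R42A cells it averaged 7.04 ± 2.40 CPM when asynchronous, peaked at 23.9 ± 3.69 CPM at 45 min and was back at 6.65 ± 1.79 CPM at 240 min, when counts under Eomes were at 28.2 ± 5.78 CPM. At 45 min the R42A libraries held 18.3, 22.8, 24.7 and 30.1 CPM and the MD libraries 6.47, 9.77, 12 and 17.1 CPM, with no overlap. It was lower in MD cells at 45 min (log2 -1.27 ± 0.25, adjusted p = 0.000421 by edgeR's quasi-likelihood test over all 23874 features) and at 90 min (log2 -1.51 ± 0.38, adjusted p = 0.00184), with both MD clones below both R42A clones. At 0, 180 and 240 min the log2 differences were -0.90 ± 0.43, -0.76 ± 0.32 and -0.58 ± 0.34 and missed the threshold.

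Counts filed under Wnt3 followed different courses in the 2 genotypes early after mitosis. In asynchronous cells R42A libraries held 4.67, 8.95, 10.5 and 10.6 CPM and MD libraries 3.62, 6.81, 7.88 and 8.70 CPM, and the ranges overlapped. At 0 min the R42A libraries held 2.23, 2.42, 3.87 and 6.56 CPM and the MD libraries 7.35, 8.58, 9.78 and 14.5 CPM. At 45 min the R42A libraries held 0.867, 2.72, 3.52 and 3.66 CPM and the MD libraries 13.6, 15.9, 17.1 and 23.0 CPM. The MD libraries lay above all R42A libraries at both times, and at 90 min too.

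By 180 min the difference under Wnt3 had narrowed. R42A libraries then held 10.8, 13.9, 17.2 and 22.3 CPM and MD libraries 16.9, 18.6, 20 and 28.9 CPM, and the ranges overlapped at 180 and 240 min. The log2 difference, MD minus R42A, ran from -0.51 ± 0.30 in asynchronous cells through 1.39 ± 0.46 at 0 min, 2.58 ± 0.31 at 45 min and 1.02 ± 0.38 at 90 min to 0.30 ± 0.22 at 180 min and 0.44 ± 0.24 at 240 min. By library totals alone, the 45 min level in R42A cells was 0.308 of the asynchronous one (95% interval 0.191 to 0.484, counting error only). In MD cells it was 2.63 times the asynchronous one (1.91 to 3.67). The change from 90 to 180 min was 1.97 ± 0.27 on the log2 scale in R42A and 1.26 ± 0.30 in MD cells. MD cells at 45 min overlapped the 180 and 240 min groups of both genotypes.

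Counts filed under Mixl1 were lowest at 45 min in both genotypes and, in MD cells, highest on release. At 0 min the R42A libraries held 2.23, 11.6, 12.1 and 15.7 CPM and the MD libraries 7.25, 12.2, 14.7 and 18.6 CPM. At 45 min the R42A libraries held 1.3, 2.35, 2.72 and 3.66 CPM and the MD libraries 0.612, 1.80, 2.57 and 2.81 CPM. In MD cells the 2 times did not overlap, and in R42A cells they overlapped through 1 library of clone A04 at 0 min that held 2 counts.

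From asynchronous cells to 0 min the log2 change under Mixl1 was -0.01 ± 0.34 in R42A, within the error, and 0.98 ± 0.34 in MD cells. From 0 to 45 min it was -1.94 ± 0.41 in R42A and -2.68 ± 0.40 in MD cells, and from 45 to 90 min it was 1.31 ± 0.36 and 1.63 ± 0.50. From 90 min on, group means lay between 3.69 and 5.56 CPM. The genotypes overlapped at all 6 times, with log2 differences from -0.65 ± 0.33 in asynchronous cells to 0.31 ± 0.37 at 240 min. Each group rested on only 18 to 66 counts.

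**Figure D2:**
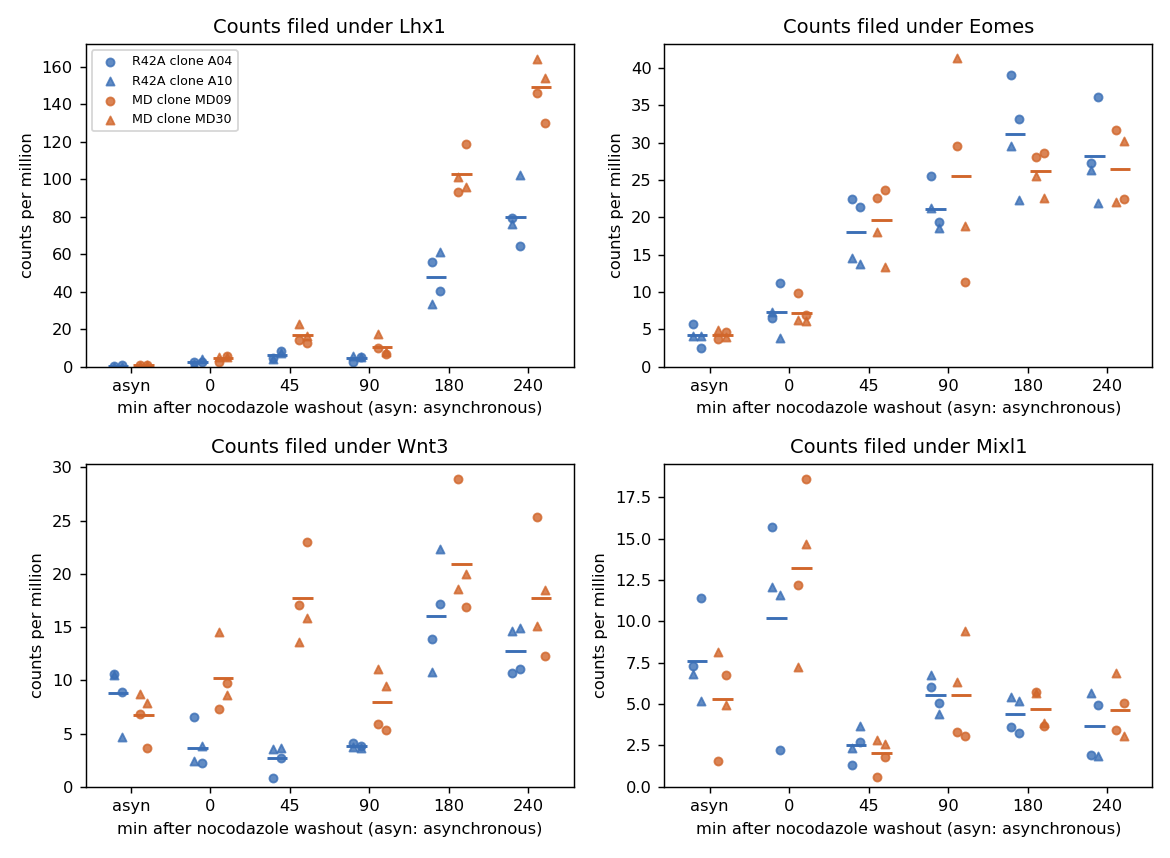
CPM filed under each of the 4 genes in every library, by time (asynchronous, then 0 to 240 min after washout) and genotype; shapes mark the clones and bars the mean of 2 clones. Lhx1 climbs to 149 CPM in MD cells at 240 min, MD and R42A libraries of Wnt3 are furthest apart at 45 min, Eomes overlaps at all times and Mixl1 is lowest at 45 min.

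Lhx1 and Wnt3, the 2 genes whose genotypes stood apart, are both on chromosome 11, and features of that chromosome were higher in MD clones as a whole. At 45 min the median log2 difference of its 1749 tested features was 0.47, against 0.01 over all features. It was 0.42 in asynchronous cells, 0.51 at 0 min, 0.29 at 90 min and 0.50 at both 180 and 240 min. Chromosome 8 was lower by medians of -0.37 to -0.49, while the medians of the 18 other chromosomes at 45 min lay between -0.17 and 0.05. Clone by clone, the median of chromosome 11 against the R42A mean of the same time was 0.24 to 0.53 in the 12 MD sums and -0.05 to 0.05 in the 12 R42A sums. That mean is of the R42A clones themselves, so their values mirror each other around 0 and are no separate yardstick. The number of copies of chromosome 11 in these clones was not measured in the data used here, and its part in the differences was not tested.

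**Figure D3:**
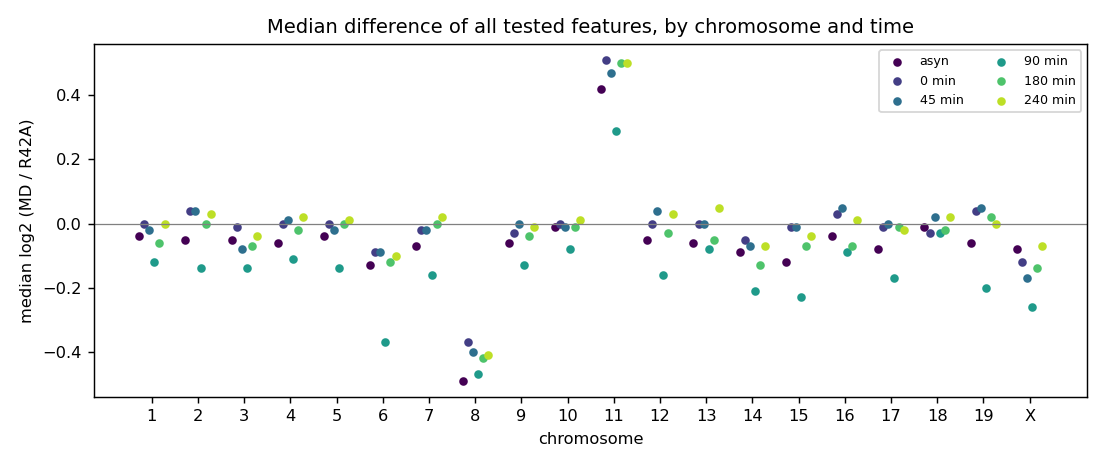
Median log2 difference, MD over R42A, of all tested features on each chromosome, at each of the 6 times. Chromosome 11 lies between 0.29 and 0.51 and chromosome 8 between -0.49 and -0.37.

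With each chromosome scaled to its own median, a setting chosen after this was seen, the differences of Lhx1 and Wnt3 were smaller. That of Lhx1 was 0.81 ± 0.25 at 45 min, 0.92 ± 0.32 at 90 min, 0.54 ± 0.17 at 180 min and 0.40 ± 0.17 at 240 min, so at 240 min a 1.82-fold difference became a 1.32-fold one. That of Wnt3 was 2.06 ± 0.31 at 45 min, 4.18-fold in place of 5.97-fold. At 180 and 240 min the Wnt3 difference was -0.17 ± 0.22 and -0.02 ± 0.24, and in asynchronous cells -0.94 ± 0.30. Eomes and Mixl1, on chromosomes 9 and 1, moved by at most 0.14. Changes over time are given without this scaling.

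**Figure D4:**
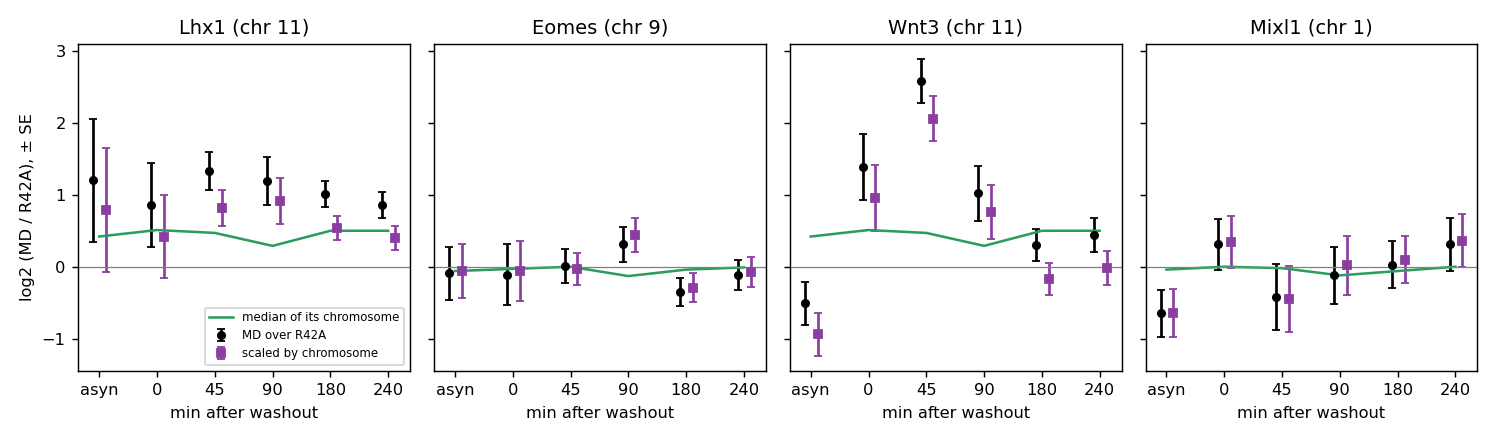
Log2 difference, MD over R42A, ± standard error for counts filed under each of the 4 genes at the 6 times (black), the same with each chromosome scaled to its median (purple), and the median of the gene's chromosome (green line). Wnt3 at 45 min stays 2.06 above 0 after scaling, while its 180 and 240 min values fall to about 0.

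Around the 4 genes, 41 features lie within 200 kb, of which 40 were in the tables and 23 were tested. At 45 min 5 of them were higher and 3 lower in MD cells (21.7% and 13%), where 10.3% and 7.33% of all features were called higher and lower at an adjusted p of at most 0.05. Chromosome 11 supplied 4 of the 5 higher ones from 8 tested, where 32.1% of all its features were higher. The other chromosomes supplied 1 from 15, and all 3 lower ones. Beside Lhx1, Aatf, a regulator of transcription and apoptosis, averaged 38.7 ± 2.26 CPM in the MD clones against 21.8 ± 1.58 CPM (log2 0.72 ± 0.17, adjusted p = 0.00276). Beside Wnt3, Nsf, an ATPase of vesicle fusion, averaged 92.7 ± 11.7 CPM in the MD clones against 46.3 ± 1.17 CPM (log2 0.89 ± 0.18, adjusted p = 0.000573). Scaled by chromosome, neither passed (adjusted p = 0.466 for Aatf and 0.173 for Nsf). Gm884, 153 kb from Wnt3, was higher in MD cells by 3.05 ± 0.26 on the log2 scale at 45 min and by 2.53 ± 0.26 after that scaling, and passed at all 6 times.

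Beside Mixl1, Lin9 differed by -0.05 ± 0.21 at 45 min and Lefty2, a Nodal inhibitor 196 kb away, by -0.07 ± 0.35, and neither passed. H3f3a, a histone H3.3 gene of the same region, was lower in MD cells (log2 -0.68 ± 0.21, adjusted p = 0.0228). Of the 23 neighbours, 1 was higher and 1 lower in asynchronous cells (4.35% each, against 5.18% and 7.95% of all features), and 2 and 2 at 0 min (8.70% each, against 3.71% and 2.95%). At 90 min, where the MD libraries stood apart, 5 and 5 passed (21.7% each, against 15.6% and 22.1%). At 180 min it was 2 and 1 (8.70% and 4.35%, against 6.55% and 7.46%) and at 240 min 3 and 2 (13% and 8.70%, against 6.13% and 4.43%). The higher neighbours were all on chromosome 11 in asynchronous cells and at 0, 180 and 240 min, as were 4 of the 5 at 90 min. Of all features of chromosome 11, 17.9 to 31.4% were called higher at these 5 times.

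**Figure D5:**
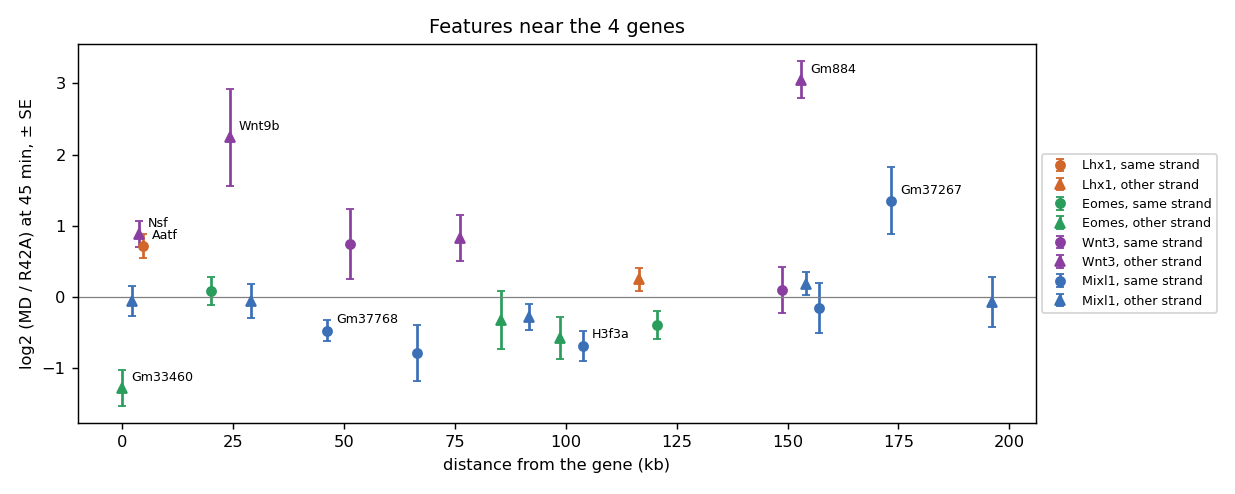
Log2 difference, MD over R42A, at 45 min ± standard error for the 23 tested features within 200 kb of the 4 genes, against their distance from the gene; colours give the gene, shapes the strand relative to it, and names mark features that passed the test. Gm884 near Wnt3 is highest at 3.05 and Gm33460 at Eomes lowest at -1.27.

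Other genes of the primitive streak and early mesoderm were mostly too low to test, since 13 of 31 listed genes passed the filter. At 45 min 3 were higher in MD cells and 0 lower (23.1% and 0%, against 10.3% and 7.33% of all features). Wnt3a, a Wnt ligand of the streak that also lies on chromosome 11, averaged 12.5 ± 2.67 CPM in the MD clones against 3.33 ± 0.365 CPM (log2 1.79 ± 0.34, adjusted p = 0.000336). Gata6, an endoderm and heart GATA factor, differed by 1.21 ± 0.40 (adjusted p = 0.0309) and Pdgfra, a growth factor receptor of mesoderm, by 0.77 ± 0.26 (adjusted p = 0.0337). Scaled by chromosome, Wnt3a and Gata6 still passed (adjusted p = 0.00738 and 0.0482) and Pdgfra did not (0.69 ± 0.25, adjusted p = 0.0611). Counts filed under Wnt3a, like those under Lhx1, were highest late, from 1.17 ± 0.0672 CPM in asynchronous R42A cells to 40.8 ± 17.2 CPM at 240 min, and from 1.94 ± 0.173 to 79.1 ± 1.48 CPM in MD cells.

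At the other times the streak list had 0 higher and 1 lower in asynchronous cells (all features 5.18% and 7.95%), 0 and 0 at 0 min (3.71% and 2.95%), 2 and 3 at 90 min (15.6% and 22.1%), 1 and 0 at 180 min (6.55% and 7.46%), and 2 and 0 at 240 min (6.13% and 4.43%). Tbx6, a T-box factor of presomitic mesoderm, was the member lower in asynchronous MD cells (log2 -0.53 ± 0.16, adjusted p = 0.0253). That call was lost, with 0 genes of the list passing, when libraries were fitted singly, with the replicate block, with limma-voom, with library totals, with no filter, with asynchronous sums alone, and without clone A04, MD09 or MD30. The 90 min counts come from MD libraries that stood apart from the R42A libraries of that time. With so few genes tested, these shares rest on 1 to 3 genes each. Scaled by chromosome, no gene of the list passed at 180 or 240 min.

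Of the Wnt pathway list, to which Wnt3 belongs by function, 70 of 76 genes were tested. At 45 min 19 were higher and 4 lower in MD cells (27.1% and 5.71%, against 10.3% and 7.33% of all features). Chromosome 11 supplied 6 of the 19 from 10 tested genes, where 32.1% of all its features were higher, and the chromosomes other than 8 and 11 supplied 13 from 57. Kremen1, a chromosome 11 gene for a co-receptor of the inhibitor DKK1, averaged 46.2 ± 3.19 CPM in the MD clones against 10.2 ± 0.519 CPM (log2 2.06 ± 0.19, adjusted p = 1.02e-09). Lef1, a DNA-binding partner of beta-catenin on chromosome 3, averaged 31.7 ± 6.66 CPM against 12.8 ± 0.103 CPM (log2 1.19 ± 0.22, adjusted p = 0.000188). Sfrp1, a secreted Wnt antagonist on chromosome 8, was lower (log2 -1.99 ± 0.24, adjusted p = 3.38e-07). Scaled by chromosome, 12 genes outside chromosomes 8 and 11 and 2 on chromosome 11 were higher. In the same fit 4 genes outside chromosomes 8 and 11 and 1 on chromosome 8 were lower. Of all features 7.98% were then higher and 8.03% lower.

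The Wnt list had 10 higher and 6 lower in asynchronous cells (14.3% and 8.57%, against 5.18% and 7.95% of all features) and 6 and 2 at 0 min (8.57% and 2.86%, against 3.71% and 2.95%). At 90 min, where the MD libraries stood apart, 23 and 10 passed (32.9% and 14.3%, against 15.6% and 22.1%). It had 7 and 9 at 180 min (10.0% and 12.9%, against 6.55% and 7.46%) and 11 and 5 at 240 min (15.7% and 7.14%, against 6.13% and 4.43%). At 240 min 8 of the 11 were among the 10 tested genes of chromosome 11, where 27.7% of all features were called higher.

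In the Nodal list, with 27 of 29 genes tested, 0 genes were higher and 2 lower at 45 min (0% and 7.41%, against 10.3% and 7.33% of all features). It had 1 and 4 in asynchronous cells (3.70% and 14.8%, against 5.18% and 7.95%) and 0 and 4 at 0 min (0% and 14.8%, against 3.71% and 2.95%). At 90 min, where the MD libraries stood apart, 3 and 6 passed (11.1% and 22.2%, against 15.6% and 22.1%). At 180 min it had 1 and 3 (3.70% and 11.1%, against 6.55% and 7.46%), and at 240 min 2 and 3 (7.41% and 11.1%, against 6.13% and 4.43%). Pcsk6, a convertase that processes Nodal, was lower in MD cells at 45 min (log2 -0.54 ± 0.16, adjusted p = 0.018). Counts filed under Nodal itself were lower in asynchronous MD cells (log2 -0.67 ± 0.19, adjusted p = 0.0171) and higher in MD cells at 90 min (log2 0.68 ± 0.20, adjusted p = 0.00708). At 0, 45, 180 and 240 min they differed by -0.09 ± 0.22, 0.10 ± 0.18, 0.23 ± 0.17 and 0.31 ± 0.18, and did not pass.

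Likeness to each of the 4 was sought among 14517 features with a mean of at least 2 CPM. Features with provisional names, such as Gm numbers, Rik names and accession-like names, were left out of that set, many of them noncoding. It was measured as Pearson's r of log2(CPM + 0.5), with CPM scaled as in the fit. The 24 clone sums used share their time points, clones and depth. Lhx1 was most like Ldb3, a Z-disc protein of muscle (r = 0.981), Tmc8 (0.981) and Vwce (0.980). Eomes was most like Mbnl1, a splicing regulator (0.959), Pafah2 (0.943) and Pitpnm2os1 (0.934). Wnt3 was most like Mycbpap (0.892), which is also on chromosome 11, Olfr545 (0.881) and Egfr, the epidermal growth factor receptor, also on chromosome 11 (0.869). Mixl1 was most like Bace1, the beta-secretase (0.845), Rsph10b (0.843) and Vmn2r53 (0.826).

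The 4 were also compared with one another. The features named above were picked for the highest r of all those searched. Their values are therefore no yardstick for how alike the 4 genes are. Lhx1 and Eomes had r = 0.813, Lhx1 and Wnt3 0.593, and Eomes and Wnt3 0.319. For Mixl1, r was -0.440 with Lhx1, -0.570 with Eomes and only -0.148 with Wnt3. Such values describe shared courses over the 6 times and say nothing of shared control.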

How the data were processed

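Per the labels' protocols, a Click-iT kit captured the EU-labelled RNA and libraries were prepared with KAPA Hyper Prep. The submitters' processing notes name Trim Galore 0.60, STAR 2.7.1a, RSEM 1.3.0 and mm10. The deposited values are raw counts for each symbol, in whole numbers, with a separate table for each library. The 5 counter entries of each table were left out. Between 90.2 and 94.0% of the reads in a table fell in no feature.

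CPM was computed over all gene symbols. Libraries of the same clone and condition were added up, giving 24 sums. Features were filtered with filterByExpr (minimum count 10, total 15), scaled by TMM and fitted as 12 group means in edgeR 4.0.16 (R 4.3.3), with robust quasi-likelihood tests and Benjamini-Hochberg adjustment at 0.05. Log2 changes over time within a genotype, and their errors, came from a second fit that added a clone term for each genotype to these means. The code was checked on simulated data. Positions and strands came from GENCODE M21. The strand check used features of at least 300 bp.

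The 4 genes and the gene lists were chosen with earlier results of these data known. Besides the 4 genes, up to 4 genes per list and comparison that passed, averaged at least 2 CPM, had clones on separate sides and had the smallest adjusted p could be named, with all tested neighbours at 45 min, the 3 features most like each gene, and cell type markers. Gm33460 at other times, Wnt3a over time and the antisense pairs were chosen after their values were seen. Alternatives were each clone, library and replicate number left out, libraries fitted singly, the replicate number as a block, limma-voom (limma 3.58.1), DESeq2 1.42.0 and its size factors, library totals, no filter, each condition alone, and no 90 min libraries. Scaling by chromosome and leaving out CT010467.2 with mitochondrial features were added after the data were seen.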

Additional observations from a re-analysis of the deposited data

Results flagged for a closer look

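In asynchronous MD cells, the first library of clone MD30 held 0.544 CPM under Lhx1 and stood far from the other 3 libraries, which held 0.985, 1.04 and 1.05 CPM. It rests on 1 count and the others on 2 each, so the step is that of a single read. About 1 group in 20 is picked out in this way by chance.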

How the results depend on the processing

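The differences under Lhx1 and Wnt3 at 45 min kept their sign in 25 of 25 alternatives. All MD libraries lay above all R42A libraries there, so leaving samples out could hardly turn the sign. The genes were also chosen by their values, so the kept sign is no separate support. Leaving out a clone, library or replicate number gave 0.69 to 1.99 for Lhx1, and scaling by the median of each chromosome gave 0.81. Under Eomes at 45 min, near 0, 9 of 25 kept the sign. Counts of list genes passing the test, in either direction, depended on the setting, and the cause was not tested beyond the fewer sums. With a clone, library or replicate number left out, in order of time from asynchronous to 240 min, the streak list gave 0 to 1, 0 to 0, 1 to 3, 1 to 6, 0 to 2 and 0 to 2, the Wnt list 8 to 16, 4 to 8, 8 to 19, 15 to 33, 9 to 17 and 6 to 14, the Nodal list 1 to 5, 0 to 5, 0 to 3, 3 to 12, 1 to 4 and 1 to 8, and the neighbours 1 to 2, 2 to 3, 2 to 8, 6 to 14, 2 to 5 and 3 to 4. In asynchronous cells, libraries fitted singly, limma-voom and the replicate block each gave 0 for the streak list and 4 for the neighbours, and the replicate block moved no other count by over 1.5 times. Replicate numbers did not pair the samples (correlations of deviations -0.07 to -0.00242). Library totals gave 0 streak, 3 Nodal and 1 neighbour in asynchronous cells, 2 Nodal at 0 min, 1 Nodal at 45 min and 1 streak at 240 min. DESeq2 gave 1 streak, 14 Wnt and 5 neighbours at 45 min, 2 Nodal at 180 min, and 1 streak and 3 neighbours at 240 min. No filter gave 0 streak genes in asynchronous cells and 1 at 240 min. Each condition alone gave 0 streak and 3 Nodal in asynchronous cells, 1 Nodal at 45 min and 5 neighbours at 180 min. Without the 90 min libraries 1 streak gene passed at 240 min. Scaling by chromosome gave 2 streak in asynchronous cells, 2 neighbours at 0 min, 1 Nodal and 4 neighbours at 45 min, 0 streak and 8 Wnt at 180 min, and 0 streak, 10 Wnt and 3 neighbours at 240 min. Depth limits the 0 min and MD 90 min groups.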
